A study of Mus musculus with 2 samples.

Results

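Internal coding exons were compared with the introns that flank them in mouse osteoblasts with and without TET enzymes. The exons were internal, neither first nor last, in the longest principal (appris_principal) transcript of each autosomal protein-coding gene in GENCODE M21 on GRCm38. They were 80 to 300 bp long and more than 5 kb from the transcription start site (TSS) of that transcript. Of the 104200 distinct exons that met these conditions, 44683 in 10247 genes had at least 20 methylation calls in each library and were analysed. A call is the reading of 1 cytosine of a CG dinucleotide (a CpG) on 1 read, and the methylation level is the number of methylated calls divided by the number of all calls. The flanks of an exon were the 300 bp of intron on each side, cut short where the intron was shorter.

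Whole genome bisulfite sequencing was done on primary osteoblasts from the calvaria of 3-day-old C57BL/6 mice. One library came from wild type (WT) cells and 1 from cells labelled TET1/2/3 Triple knockout (TCKO), in which the Prx1-Cre transgene deletes floxed alleles (Tet1fl/fl, Tet2fl/fl and Tet3fl/fl). Prx1-Cre acts in the mesenchyme of the limb buds and part of the skull, so cells of other origin in such a culture keep intact alleles, and the cells were grown for 3 days before use. Every comparison therefore sets 1 library against 1 library, has no replicate check, and carries intervals and p-values that cover counting error only. Expression markers of osteoblasts were not analysed here, since both libraries hold DNA methylation calls.

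In mammals most CpGs in the bodies of genes are methylated, and exons are on the whole more densely methylated than the introns around them. They also hold more CpGs, since coding sequence keeps CpGs that introns lose by mutation of methylated cytosine to thymine, and exon methylation has been studied for its links to nucleosomes and to the choice of splice sites. TET enzymes oxidise 5-methylcytosine, first to 5-hydroxymethylcytosine, which leads to loss of the mark. Bisulfite sequencing reads both of these forms as methylated, so the levels are the sum of both.

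The exons below show what the measurement reads: calls came only from the CpGs, which are in capitals, on either strand. The first 4 lie in bone genes and gained methylation in the TCKO library. Col1a1 and Col1a2 encode the chains of type I collagen, the main protein of bone, and Runx2 encodes the transcription factor that commits cells to the osteoblast fate. Exon 4 of Runx2 codes for part of its DNA-binding Runt domain. Sequences are those of GRCm38, read 5′ to 3′ on the strand of the gene.
Col1a2 exon 5, chr6:4510684-4510794, plus strand: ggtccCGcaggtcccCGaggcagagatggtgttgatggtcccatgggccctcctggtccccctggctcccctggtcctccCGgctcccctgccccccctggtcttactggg
Col1a2 exon 31, chr6:4527055-4527153, plus strand: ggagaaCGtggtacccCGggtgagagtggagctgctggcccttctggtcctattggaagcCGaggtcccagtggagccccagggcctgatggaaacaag
Col1a1 exon 49, chr11:94950709-94950899, plus strand: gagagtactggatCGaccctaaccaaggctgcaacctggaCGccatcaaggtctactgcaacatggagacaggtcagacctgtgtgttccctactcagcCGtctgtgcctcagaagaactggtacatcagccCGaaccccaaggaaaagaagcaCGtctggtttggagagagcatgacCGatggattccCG
Runx2 exon 4, chr17:44724745-44724901, minus strand: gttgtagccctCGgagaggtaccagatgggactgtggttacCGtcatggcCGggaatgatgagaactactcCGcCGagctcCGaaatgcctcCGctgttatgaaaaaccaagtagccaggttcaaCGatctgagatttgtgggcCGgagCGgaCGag

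A second set shows exons that went from few methylated calls to many, with 2 to 4 CpGs each. Zfp91 and Hivep3 encode zinc finger proteins, and the product of Hivep3, also called Schnurri-3, restrains bone formation by osteoblasts. Rptor encodes the scaffold of the growth kinase complex mTORC1. Memo1 encodes a protein of cell migration.
Zfp91 exon 10, chr19:12771003-12771102, minus strand: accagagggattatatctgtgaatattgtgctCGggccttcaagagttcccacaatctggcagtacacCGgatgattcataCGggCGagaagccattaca
Hivep3 exon 7, chr4:120128276-120128362, plus strand: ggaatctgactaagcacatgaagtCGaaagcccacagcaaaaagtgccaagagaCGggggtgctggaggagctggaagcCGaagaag
Rptor exon 2, chr11:119657664-119657766, plus strand: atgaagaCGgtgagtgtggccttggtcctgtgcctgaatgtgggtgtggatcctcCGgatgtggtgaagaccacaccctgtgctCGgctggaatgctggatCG
Memo1 exon 6, chr17:74225432-74225574, minus strand: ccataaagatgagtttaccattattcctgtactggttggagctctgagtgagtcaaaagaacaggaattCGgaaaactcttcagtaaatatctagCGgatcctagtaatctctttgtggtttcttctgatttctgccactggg

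The last pair shows the opposite cases. The exon of Abca4, a lipid transporter of the retina, kept its level while its flanks rose. The exon of Bace1, the beta-secretase, was among the few that fell.
Abca4 exon 19, chr3:122121631-122121805, plus strand: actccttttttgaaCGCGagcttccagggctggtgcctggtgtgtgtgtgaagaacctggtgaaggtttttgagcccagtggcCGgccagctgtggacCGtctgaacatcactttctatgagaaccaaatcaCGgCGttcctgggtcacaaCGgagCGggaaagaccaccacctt
Bace1 exon 8, chr9:45859279-45859450, plus strand: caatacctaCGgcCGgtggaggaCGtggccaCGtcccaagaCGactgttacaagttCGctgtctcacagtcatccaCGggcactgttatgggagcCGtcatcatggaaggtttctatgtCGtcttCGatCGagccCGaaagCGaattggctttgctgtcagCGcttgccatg

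The libraries held 250877554 autosomal CG calls in WT and 214609823 in TCKO, and the autosomal level was 70.4% in WT and 76.6% in TCKO. Some internal exons of the deleted Tet genes had few calls or none in TCKO. Calls numbered 62 in WT and 1 in TCKO for exon 11 of Tet1, 7 and 0 for exon 9 of Tet2, and 14 and 0 for exon 9 of Tet3. These exons were picked for their few TCKO calls after the values were seen, so they cannot serve as a check of the labels. Other exons of the same genes kept calls, such as exon 8 of Tet2 with 13 and 10. Medians per exon were 47 calls (WT), 38 calls (TCKO), 4 CpGs and 147 bp. Of the 44683 exons, 97.4% were wholly coding, 924 were coding in part and 251 held no coding base of the chosen transcript. An AG acceptor and a GT donor stood at the borders of 98.7% of them.

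Exons were more methylated than their flanks in both libraries. In WT, 2516194 exon calls gave a level of 81.5% and 3120983 flank calls gave 78.7%, a difference of 2.81 points (95% interval 2.75 to 2.88). In TCKO the levels were 86.5% and 84.4%, a difference of 2.10 points (2.04 to 2.16). The exon level was above the flank level on each of the 19 autosomes in both libraries, by 1.65 points (chromosome 10) to 4.12 points (chromosome 12) in WT and by 1.07 points (chromosome 14) to 2.85 points (chromosome 19) in TCKO. Exon by exon, over the 36929 exons whose flanks had at least 20 calls in each library, the exon lay above its own flanks in 59.6% of cases in WT and in 58.4% in TCKO. A typical exon was thus close to its flanks, with a median difference of 2.56 points in WT and 1.93 points in TCKO.

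Methylation stepped up at the acceptor site and came down within the intron past the donor site. In windows of 20 bp, the WT level was 78.1% in the last window of intron before the acceptor site, 80.5% in the first window of the exon and 81.7% in the next, and it reached 82.3% between 60 and 80 bp into the exon. At the other end the level did not fall at the border itself. The last window of the exon had 81.1%, the first window of intron past the donor site 81.4%, the next one 80% and the one after that 78.8%. The TCKO profile ran above the WT profile in each of the 40 windows, by 4.77 to 6.60 points. CpG density changed more sharply than methylation. It fell to 0.736 CpGs per 100 bp in the last 20 bp of intron before the acceptor, where the pyrimidine tract lies, was 2.71 in the first 20 bp of the exon, and was 1.45 in the first 20 bp past the donor.

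**Figure D1:**
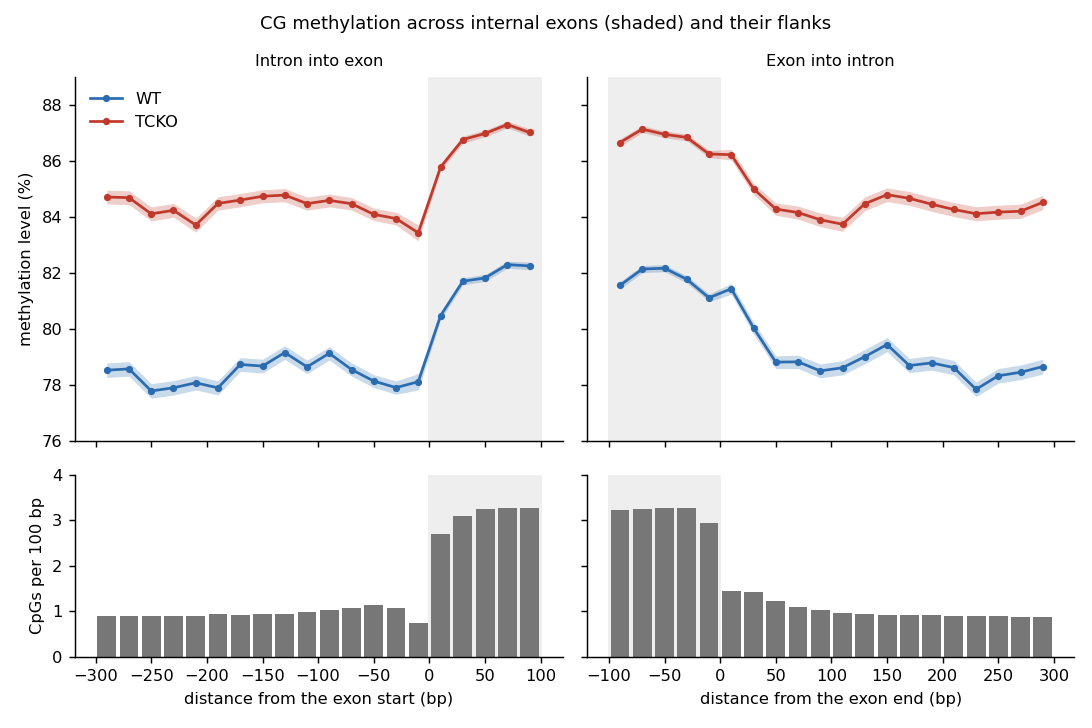
Methylation level (upper panels, %) and CpG density (lower panels, CpGs per 100 bp) in 20 bp windows against distance from the exon start (left) and exon end (right), over 44683 exons. Lines are WT and TCKO, bands are 95% Wilson intervals, the exon is shaded, and the vertical axis of the upper panels starts at 76%; the WT line climbs from 78.1% to 80.5% at the acceptor and comes down from 81.4% to 78.8% within 60 bp after the donor.

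Exons and flanks were also compared at like CpG density, since exons held 3.13 CpGs per 100 bp and flanks 0.990. Exons with fewer than 1 CpG per 100 bp (2165 exons) had 77.5% in WT, below the 78.4% of flanks of that density. From there the exon level rose with density, to 80% at 1 to 2 CpGs, 81.5% at 2 to 3, 82.2% at 3 to 4 and 82.9% at 4 to 6 CpGs per 100 bp, and it was 79.8% in the densest class of 6 or more (2385 exons). The flank level ran the other way, from 79.4% at 1 to 2 CpGs to 75.7% at 3 to 4 (563 flanks) and 66.4% at 4 to 6 (109 flanks). In the 3 to 4 class exons stood 6.51 points above flanks in WT, while both rose by nearly the same amount in TCKO, 5.37 points in exons and 5.38 points in flanks. The difference of these changes was -0.00703 points with an interval of -0.455 to 0.441, and in the class of fewer than 1 CpG it was -0.35 points with an interval of -0.787 to 0.0856. In the classes between them exons rose less than flanks, with a difference of -0.547 points at 1 to 2 CpGs and -0.456 points at 2 to 3, and at 4 to 6 CpGs they rose more, with a difference of 2.23 points over 109 flanks. In the densest class exons went from 79.8% to 83.3%, while its 17 flanks went from 21.2% to 16.2%, a difference of 8.51 points with an interval of 5.69 to 11.3 that rests on those few flanks.

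**Figure D2:**
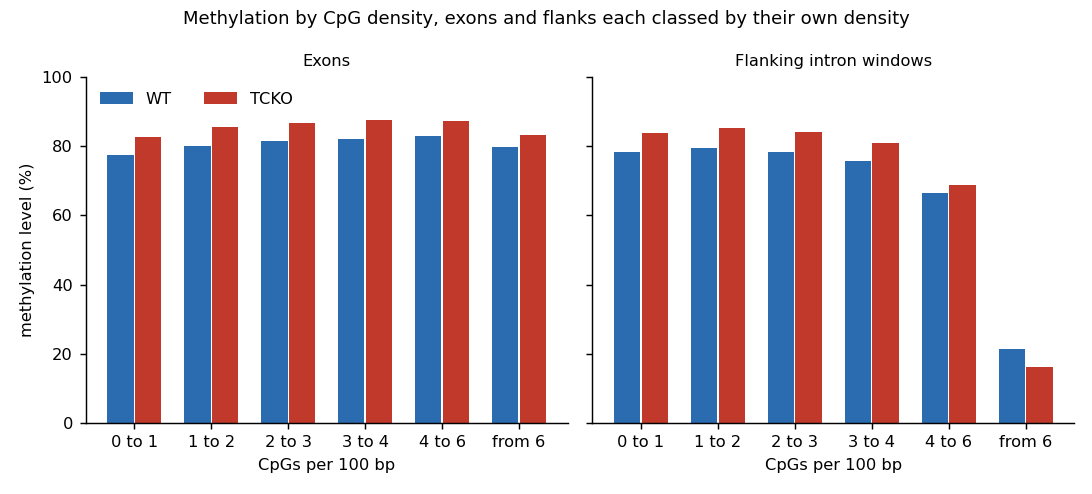
Methylation level (%) of exons (left) and of flanking intron windows (right) by their own CpG density, with WT and TCKO bars side by side. Exon bars grow from 77.5% to 82.9% in WT up to 4 to 6 CpGs per 100 bp and stand at 79.8% in the densest class, flank bars shrink to 66.4% and then 21.2%, and TCKO bars stand above WT bars except in the 17 flanks of the densest class (16.2%).

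The base before the CpG went with the level as well. Cytosines after a G were the most methylated, with 86% in exons and 83.8% in flanks of WT, and rose least in TCKO, by 3.28 points (3.15 to 3.41) and 3.90 points (3.78 to 4.03). Cytosines after an A were the least methylated in exons, at 79.3% in WT, and rose most, by 6.02 points (5.88 to 6.15). With each of the 4 bases the exon level in WT was above the flank level and the exon change was below the flank change, and in none of the 4 did the intervals of these changes overlap. By place in the codon, CpGs at codon positions 1 and 2, which make the arginine codons, had 82.5% in WT and rose by 4.77 points. Those at positions 2 and 3 had 81.6% and rose by 5.16 points. Those that join position 3 to the next codon, where the C can often change without changing the protein, had 80.8% and rose by 5.13 points. Among the single codons, GCG (alanine) had 86.4% and CGC (arginine) 86.1% in WT, and ACG (threonine) 78.9%. The ACG codons rose by 6.43 points (6.18 to 6.69), the CGC codons by 3.01 points (2.80 to 3.23).

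Exons gained methylation in the TCKO library, and their flanks gained more points. The exon level rose from 81.5% to 86.5%, by 5.03 points (4.97 to 5.10), and the flank level from 78.7% to 84.4%, by 5.74 points (5.68 to 5.81), where all autosomal CpGs rose by 6.23 points. The exon change minus the flank change was -0.713 points (95% interval -0.804 to -0.621 from binomial errors). The difference was negative on each of the 19 autosomes, from -1.78 points on chromosome 12 to -0.169 points on chromosome 17, with p under 0.05 on 15 of them. It was -0.428 points with flanks of 100 bp, -1.08 points against the intron from 300 to 600 bp away and -0.45 points when each exon had the same weight.

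**Figure D3:**
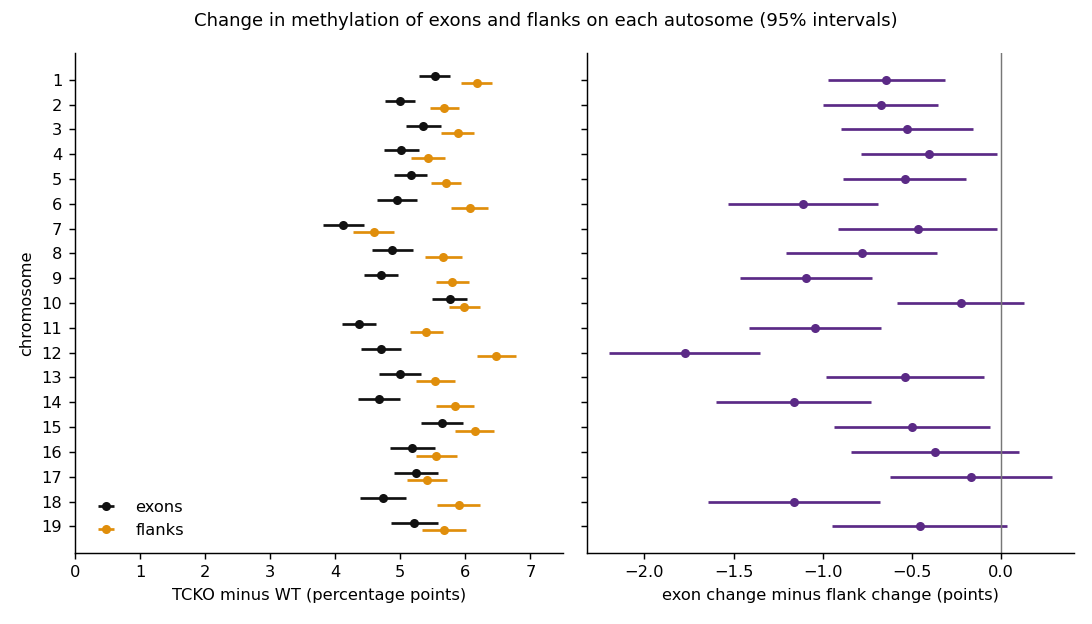
Left, TCKO minus WT methylation (percentage points) of exons and flanks on each autosome; right, exon change minus flank change, with 0 marked. Bars are 95% intervals for counting error; exons rose by 4.12 points (chromosome 7) to 5.76 points (chromosome 10), and each point in the right panel lies left of 0.

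As a share of the calls that were unmethylated in WT, the changes of exons and of the pooled 300 bp flanks did not differ past the threshold. Other flank widths were not compared on this scale. Unmethylated calls made up 18.5% of exon calls in WT and 13.5% in TCKO, a loss of 27.2% of them (26.9% to 27.5%). In flanks they made up 21.3% and 15.6%, a loss of 27.0% (26.7% to 27.2%). The losses differed by 0.246 percentage points (95% interval -0.159 to 0.651), and the exons lost the larger share on 12 of the 19 autosomes. Both losses were larger than the 21.0% (21.0% to 21.1%) over all autosomal CpGs. The change in points also grew with distance from the exons, in bands that were not compared as shares. It was 5.30 points at 1 to 50 bp, 5.61 at 51 to 100 bp, 5.77 at 101 to 200 bp, 6.02 at 201 to 300 bp and 6.44 at 1001 to 2000 bp. The intervals of the exons themselves (4.97 to 5.10) and of the nearest 50 bp (5.16 to 5.44) did not overlap.

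The 52006 exons with CpGs that had fewer than 20 calls in a library, and so were not among the 44683, had 77.5% in WT and 82.4% in TCKO when pooled, a change of 4.89 points against 5.77 points in their flanks. A further 7511 exons held no CpG.

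Single exons were tested with Fisher's exact test (two-sided), and p-values were adjusted together over 3789520 regions: the exons, 46222 flank windows and 3698615 autosomal bins of 200 bp. An exon was called where the adjusted p was below 0.05 and the levels differed by at least 20 points. In TCKO, 1661 exons were called higher (3.72%) and 46 lower (0.103%). Of the flank windows 1930 were called higher (4.18%) and 30 lower (0.0649%), and of the bins 5.4% were called higher and 0.154% lower. In both directions the share was lower in exons than in bins, a difference that was not tested, since the bins also cover the exons. The median change was 3.91 points in exons, 4.41 in flanks and 4.43 in bins. Of all exons, 68.3% had a higher level in TCKO and 30.9% a lower one. The share of exons at 90% methylation or more went from 29.7% in WT to 47.6% in TCKO, and the share between 25% and 75% from 21.4% to 11.7%.

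The exons called higher had been at intermediate or low methylation in WT. Their median level was 45.5% in WT and 87.1% in TCKO, where the median of all exons was 85.1% and 89.3%. Of these 1661 exons, 349 had been under 25% in WT (21.0%), against 842 of all 44683 (1.88%). Exons called lower started from a median of 92.3% and ended at 58.6%, and none of the 46 had been under 25% in WT. A high start leaves room to fall and a low start room to rise, so these levels describe the sets and are not a test. The 1661 exons lay in 1348 genes, of which 1125 had 1 such exon and 223 more than that, and the 46 exons lay in 46 genes.

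Both sets of called exons were picked for a change of at least 20 points in the exon itself. A smaller change beside the exon is expected from that choice, so the bands describe the sets and are not a test. Gain around the exons called higher reached past their borders. Pooled over the 1661 exons called higher, the change was 37.6 points in the exon, 25.9 points in the nearest 50 bp, 17.2 points at 201 to 300 bp, 10.9 points at 601 to 1000 bp and 8.25 points (8.02 to 8.47) at 1001 to 2000 bp, where all exons had 6.44 points. Of the 1448 among them with enough flank calls, 1319 (91.1%) also had higher flanks in TCKO, against 73.4% of all exons, and the median flank went from 62.7% to 84.1%. Around the exons called lower, loss was seen in the exon and in the nearest 50 bp. It was -30.6 points in the exon, -12.7 points (-18.9 to -6.59) in the nearest 50 bp, and from there to 300 bp the intervals included 0. At 301 to 600 bp the level was higher in TCKO, by 7.56 points (4.83 to 10.3).

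**Figure D4:**
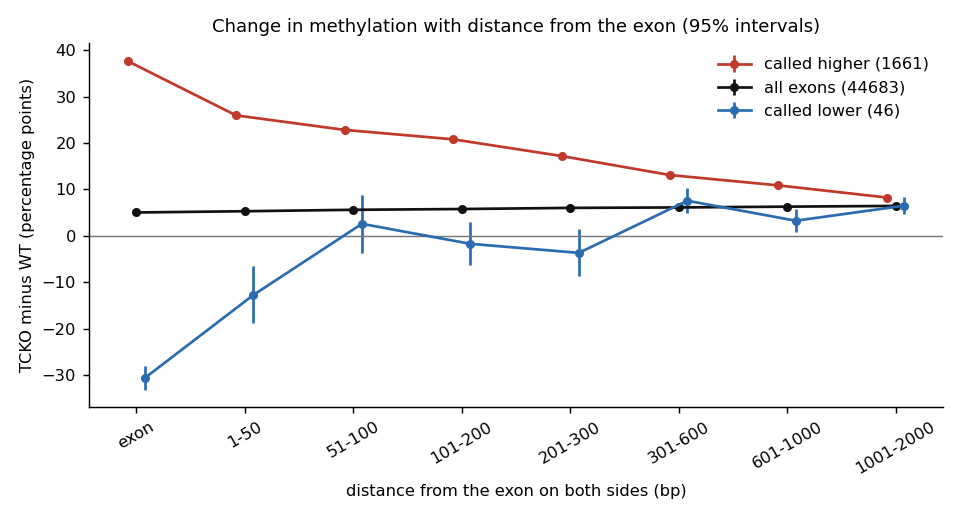
TCKO minus WT methylation (percentage points) in the exon and in bands of distance on both sides of it, for the 1661 exons called higher, the 46 called lower and all 44683. Bars are 95% intervals; the upper line comes down from 37.6 to 8.25 points, the middle line climbs from 5.03 to 6.44 points, and the lower line goes from -30.6 points to values around and above 0.

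The next exon of the gene was mostly not called with it. In 17647 cases the next exon along the transcript was also analysed, and in 34 of these pairs both exons were called higher. The neighbours of exons called higher lay across introns with a median of 2134 bp. These neighbours had a median change of 4.98 points, and 5.05% of them were called higher against 3.72% of all exons.

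Chromosome 18 was left out when the exons with the largest rises and falls were named. Among the other wholly coding exons with at least 40 calls in each library, the largest rise was in exon 5 of Cct8. Its product is a subunit of the chaperonin that folds actin and tubulin. The exon went from 3.61% of 83 calls (95% Wilson interval 1.24% to 10.1%) in WT to 87.8% of 98 calls (79.8% to 92.9%) in TCKO. Its flanks went from 25.5% to 83.7%. Exon 10 of Zfp91 had no methylated call among 74 in WT, which allows a level of up to 4.05%, and 82.8% of 58 calls in TCKO (adjusted p = 9.42e-23, Fisher's exact test). Exon 15 of Slc25a12, the aspartate and glutamate carrier of mitochondria, went from 13.4% to 94.5%. These exons crossed from nearly bare to the level of a typical exon. Exon 7 of Hivep3 had no methylated call among 42 in WT, which allows up to 7.14%, and 80% of 45 in TCKO. Exon 2 of Rptor went from 10.4% to 88.6% and exon 3 of Tmem156 from 5.66% to 83.1%. Exon 6 of Sohlh2, a germ cell transcription factor, went from 12.5% to 89.4%, and exon 6 of Cmya5, a large muscle protein, from 9.76% to 85.5%. In each of these 8 exons the intervals of the libraries were far apart, and the flanks rose as well, by 23.7 points (Rptor) to 72.7 points (Zfp91, 10 and 11 flank calls).

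The largest falls under the same conditions were smaller. Exon 20 of Sptbn4, a spectrin of neurons, went from 39.5% of 43 calls (26.4% to 54.4%) to 7.84% of 51 calls (3.09% to 18.5%), and Bace1 exon 8 from 91.9% of 74 calls to 60.9% of 46 (adjusted p = 0.00324, Fisher's exact test). Exon 5 of the cytochrome Cyp2b10 went from 68.4% to 38.5%, and exon 6 of Atp6v1b2, a subunit of the proton pump of lysosomes and bone-resorbing cells, from 98.4% to 72.5%. Exon 12 of Map7, exon 11 of Pitpnm2, exon 224 of Ttn and exon 4 of Gabrg1 fell by 22.5 to 23.7 points. The flanks did not follow in step: they moved by -18.9 points (Map7) to 38.9 points (Pitpnm2, with 10 and 9 calls), and 4 of the 8 exons had flanks that were higher in TCKO.

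Each exon was also tested against its own flanks. Over the 36929 exons, 161 rose by more points than their flanks past an adjusted p of 0.05 (0.436%) and 148 by fewer (0.401%), on a normal approximation to the difference of the 2 changes. On the log odds scale 5 exons passed in place of 309: Cd200r3 exon 2, Cluap1 exon 10, Gpatch11 exon 6, Tmem156 exon 3 and Triqk exon 2, each rising more than its flanks (named after their values were seen). The 10 exons described next had the largest differences in points among those with at least 40 calls in exon and flanks per library. None of these 10 passed on the log odds scale, where their Benjamini-Hochberg values were 0.0535 to 0.663. Among them the largest positive difference was in exon 6 of Memo1, which rose from 15.9% of 63 calls to 89.1% of 64. Its flanks, already at 75.2% in WT, reached 90.6%. Exon 19 of Trank1 went from 34.8% to 87.9% between flanks at 81.6% and 80%. Exon 9 of Kcnma1, a calcium-gated potassium channel, went from 21.8% to 91.1%, exon 2 of Rptor rose by 78.2 points against 23.7 points in its flanks, and exon 11 of Strn3, a striatin, went from 39.6% to 90.2%. In WT each of these 5 exons was below the pooled level of its flanks. A choice by larger rise than the flanks favours exons with a lower start, so this gap is not a separate result. In a pair of cases 1 side carried little of the flank level. The downstream flank of Memo1 exon 6 had 13 calls in WT (7.69% methylated) and that of Strn3 exon 11 had no calls.

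The opposite cases were exons that stood above their flanks in WT. Exon 19 of Abca4 had 96.1% of 77 calls in WT and 93.3% of 75 in TCKO, while its flanks went from 28.0% to 81.7%. Exon 15 of Rbl1, the retinoblastoma relative p107, stayed between 94.1% and 96.3% while its flanks went from 25% to 80%. Exon 28 of Thada had 98.7% and 96.1% with flanks at 29.2% and 78.7%, and exon 3 of Wnt2, a secreted signal, had 82.3% and 85.4% with flanks at 38.6% and 93.4%. In exon 19 of Efl1, a GTPase of ribosome assembly, the exon went from 78.4% to 59.7% and the flanks from 31.0% to 71.2%. Each of these 5 exons was above the pooled level of its flanks in WT by over 40 points, and 3 of them kept at least 90% in both libraries. A choice by smaller rise than the flanks favours exons with a higher start, so this gap is not a separate result either. The pooled flank level rested mostly on 1 side. In WT the upstream flank had 8 calls for Efl1 (100% methylated) and 12 for Abca4 (83.3%). The downstream flank had 6 calls for Thada (100%), 18 for Rbl1 (61.1%) and 2 for Wnt2.

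The size of the gain went with where the exon lay. At 5 to 10 kb from the TSS exons rose by 4.41 points, and beyond 100 kb by 5.72 points, and the share called higher went from 3.05% to 4.72%, with its lowest value, 2.81%, at 10 to 20 kb. Exons in genes of at least 250 kb rose by 5.77 points against 4.53 points in genes under 20 kb. Where the shorter of the flanking introns was under 150 bp, exons rose by 4.28 points and 2.26% were called higher, and where it was at least 3 kb they rose by 5.58 points and 4.91% were called higher. Changes in points were thus larger far from the TSS, in long genes and in long introns, with each property cut on its own. Their combination was not examined. By exon length the change varied little, with 5.04 points at 80 to 110 bp and 4.77 points at 200 to 300 bp. The 251 exons without coding bases were the least methylated class, with 70.1% in WT and 78.9% in TCKO.

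The methylation of the surroundings in WT went with the change of the exon. Exons whose flanks were under 25% methylated in WT (560 exons) went from 29.3% to 45.7%, those with flanks of 25% to 50% from 57.5% to 72.4%, and those with flanks of 50% to 75% from 75.3% to 82.8%. Exons between flanks of 75% to 90% rose by 4.03 points and those between flanks of 90% or more by 2.81 points. The share called higher went down in the same order, from 22.7% to 19.5%, 6.46%, 1.83% and 1.14%. In points, the change was thus largest where the flanks were least methylated. The share of unmethylated exon calls that was lost did not follow that order, with 23.2%, 35%, 30.3%, 26.6% and 23.7% from the least to the most methylated flanks. Flank changes are not set beside these values, since the classes were cut on the flank level itself.

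Summed by gene, 957 of the 1000 genes with at least 10 analysed exons had a higher exon level in TCKO and 43 a lower one, with a median change of 4.77 points. The anion exchanger Slc26a7 had the highest gain, from 57.9% to 80.2% over 11 exons (22.3 points, SE 2.90), with 3 exons called. Its relative Slc26a4, the chloride and iodide transporter pendrin, rose by 18.7 points (SE 2.77) over 10 exons, and Cps1, the first enzyme of the urea cycle, by 18.6 points (SE 2.34) over 13. Aox4, Rapgef4, Slc25a12, Rpgrip1l and Jmjd1c rose by 15 to 18.7 points. In these 8 genes the flanks rose too, by 10.3 to 21.3 points. At the other end Ppip5k1 had -4.32 points (SE 2.48) and Myh14, a nonmuscle myosin, -4.32 points (SE 3.40), and Sfi1, Myo1f, Myh8, Mcm8, Gphn and Crybg3 had -2.86 to -2.15 points. Of these last 8 genes none had an exon called in either direction. Genes with the most called exons were long ones: Adgrv1, the giant adhesion receptor of hair cells (7 of 54 exons), Cfap54 (7 of 38), Ttn, the muscle protein titin (7 of 174, and 1 called lower), Dnah14 (6 of 51), Dnah8 (5 of 74) and Hmcn1 (5 of 63). Such counts grow with the number of exons, and the share called over all exons was 3.72%.

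Exons of collagen genes had a median change above that of all exons. Among 139 analysed exons of 33 collagen genes, 11 were called higher (7.91%, against 3.72% of all exons) and none lower, and the median change was 7.39 points (3.91 in all exons). Pooled, these exons rose by 8.58 points and their flanks by 10.8 points. The fibrillar collagens, which form the rods of bone and skin, had 6 of 48 called (12.5%) and a median of 6.95 points. Pooled, the 48 exons rose by 9.90 points and their flanks by 9.83 points. These 6 exons are among the 11 of all collagen genes, and 5 of them lie in Col1a1 and Col1a2 and 1 in Col5a2. Of the 48 exons 33 were higher in TCKO, against 68.3% of all exons. Col12a1, a collagen of the fibril surface, went from 75.9% to 86.2% over 26 exons with 3 called, and its flanks rose by 20 points. Col14a1 rose by 10 points over 14 exons with 1 called. Col11a1, a cartilage collagen, went from 81.8% to 84.2% (SE 2.14) over 11 exons with none called.

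Bone matrix and adhesion genes had 19 of 378 exons called higher (5.03%) and 1 lower, with a median change of 4.34 points, against 3.72% and 3.91 points over all exons. Pooled, the 378 exons rose by 5.66 points and their flanks by 7.31 points. The fibrillin genes, which build microfibrils, gave Fbn2 with 38 exons (5.72 points, 3 called) and Fbn1 with 30 exons (5.99 points, 1 called), and the laminin gene Lama2 gave 38 exons (7.57 points, 2 called). Osteoblast signalling genes had 16 of 223 called higher (7.17%) and none lower, with a median of 4.61 points. Pooled, the 223 exons rose by 7.03 points and their flanks by 9.69 points. The difference of these lists from all exons was not tested. Lrp6, a co-receptor for Wnt signals, went from 76.2% to 89.5% over 16 exons (13.3 points, SE 1.71) with 4 called. Gli3 rose by 9.94 points over 9 exons with none called, and Igf1r had a change of 1.68 points (SE 1.69). A further 3 exons of receptors and effectors, named after their values were seen, were nearly bare or low in WT: exon 3 of the BMP receptor Bmpr1a had no methylated call among 36, which allows up to 8.33%, and 77.3% of 75 in TCKO. Exon 4 of the activin and BMP receptor Acvr1 went from 35.6% to 92.8%, and exon 5 of Lef1, a Wnt effector, from 21.6% to 92.0%.

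The next 4 lists are also read against the 3.72% called higher and the median of 3.91 points over all exons, with no test of the difference. Genes of the DNA methylation machinery had none of 45 exons called in either direction, with 27 of them higher and a median change of 2.73 points. Pooled, these exons stood at 88.8% in WT, where few points are left to gain, and their flanks rose by 6.11 points. Dnmt1, the maintenance methyltransferase, had 2.09 points (SE 2.38) over 9 exons. Splicing regulators had 4 of 159 exons called higher (2.52%) and a median of 3.92 points, and their longest members were Sf3b1 (18 exons, 4.6 points) and Prpf8 (16 exons, 4.40 points). Genes with alternative exons used as textbook examples had 11 of 236 called higher (4.66%), 2 of them in fibronectin, Fn1, and 3 in the plakin gene Dst, and a median of 4.15 points. Large genes of striated muscle had 13 of 510 called higher (2.55%), 1 lower and a median of 1.99 points, the lowest of the 8 lists. Ttn rose by 2.29 points over 174 exons and Neb by 5.62 points over 64 exons with 5 called. Exons that every coding transcript includes rose by 4.99 points and those that some transcript skips by 5.17 points.

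Of the bone marker genes, type I collagen had the most called exons. For Col1a1, 18 exons met the conditions of position and 3 had enough calls. Exon 48 went from 20.6% of 34 calls (10.3% to 36.8%) to 86% of 43 (72.7% to 93.4%), exon 49 from 27.3% of 33 to 78.8% of 33, and exon 50 from 53.8% of 52 to 90% of 40. All 3 were called, and 16 of the 17 Col1a1 exons with any calls in both libraries were higher in TCKO. For Col1a2, exon 5 went from 23.8% of 21 calls to 85.7% of 21, and exon 31 from 34% of 47 to 87.8% of 41. The other 4 analysed Col1a2 exons, toward the end of the gene, were at 84.8% to 96.7% in WT and 90% to 98.2% in TCKO and were not called. Pooled over all exons that met the position rule, Col1a1 went from 30.1% to 83.6% and Col1a2 from 55.5% to 90.1%. The flanks of these exons rose as well, from 19.6% to 74.0% in Col1a1 and from 39.7% to 84.2% in Col1a2. Exon 48 of Col1a1 had no flank calls.

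Runx2 exon 4, with 11 CpGs in 157 bp, went from 45.1% of 51 calls (32.3% to 58.6%) to 87.5% of 56 (76.4% to 93.8%), adjusted p = 0.000209 by Fisher's exact test, and its flanks from 20.6% to 83.2%. Exons 5 and 7 of Runx2 had 63.6% and 80.9% in WT and 95% and 89% in TCKO, and neither was called. Alpl, the alkaline phosphatase that lets bone mineralise, had 3 analysed exons at 80.3% to 96.4% in WT and 80% to 93.5% in TCKO, with overlapping intervals and none called. Sp7 had no exon that met the position rule. In Tet1, the 5 analysed exons were each higher in TCKO, by 0.34 to 16.2 points, and none was called; exon 12, with 95 and 23 calls, is one of them. Tet2 had 2 analysed exons, higher by 5.59 and 7.56 points and not called, and Tet3 had none with enough calls.

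**Figure D5:**
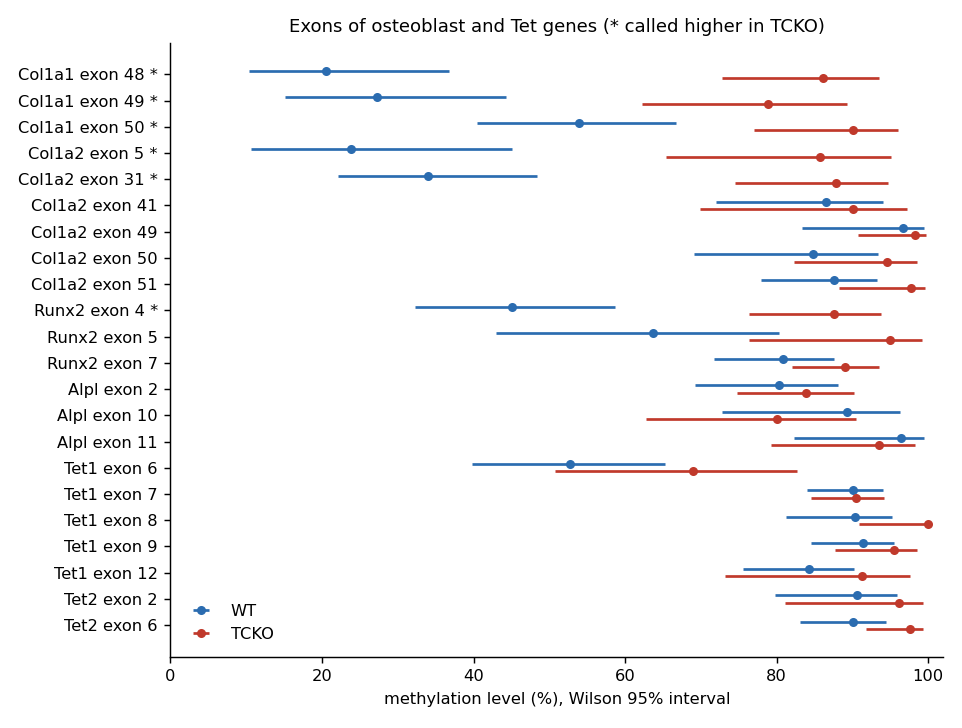
Methylation level (%) of each analysed exon of Col1a1, Col1a2, Runx2, Alpl, Tet1 and Tet2 in WT and TCKO, with 95% Wilson intervals and a star at exons called higher. The starred exons of Col1a1, Col1a2 and Runx2 go from 20.6% to 53.8% in WT to 78.8% to 90% in TCKO, while the other exons overlap between the libraries.

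Short strings of the binding motifs of 4 transcription factor families were counted in the exons on both strands, with N for any base. No string holds another. The Runt string AACCACA was present in 5.18% of the exons called higher and 2.63% of all 44683. The bZIP string TGANTCA was present in 6.62% and 3.40%, the TEAD string CATTCCA in 5.18% and 3.00%, and the bHLH string CAGCTG, which reads the same on both strands, in 15.4% and 11.7%. The median length was 149 bp in the called exons and 147 bp in all. Length and base composition were not matched, and the differences in share were not tested. These are matches of letters and not measured binding.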

How the data were processed

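Genomic DNA of 1 WT and 1 TCKO library was bisulfite converted and sequenced by the authors. Per the submitters' processing notes CASAVA and BSMAP 2.74 were used, and reads were mapped to GRCm38 with up to 2 mismatches, keeping uniquely mapped reads. The deposited values are counts per cytosine, methylated calls and all calls, which the authors took from the C and T bases of the reads. Removal of duplicate reads is not given in the sources used here, and calls on 1 read are not independent.

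Here calls on CG cytosines were summed over exons, flanks and bins with Python 3.11.15, numpy 2.4.6, pandas 2.3.3 and scipy 1.17.1. Each depth is the number of calls: 250877554 autosomal CG calls in WT and 214609823 in TCKO. Differences of pooled levels used binomial errors, single regions Fisher's exact test with Benjamini-Hochberg adjustment over 3789520 regions, and exons against their own flanks a normal approximation with 0.5 added to each count. The self-test on simulated counts was run first.

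Exons and lists were chosen with earlier results of these data known. Named exons were the 8 largest rises and falls, at most 1 per gene, among wholly coding called exons with at least 40 calls in each library. Chromosome 18 was left out of this choice. The 5 largest differences from flanks each way, also at most 1 per gene, needed at least 40 calls in exon and flanks per library. Named genes were the 8 highest and lowest changes among genes with at least 10 exons, the 6 with most called exons, the list members with most exons, and the Tet and bone marker genes. Exons that met the position rule with fewer than 20 calls (52006) or no CpG (7511) were left out.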

Additional observations from a re-analysis of the deposited data

How the results depend on the processing

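No paired analysis was possible because there is 1 library per genotype, and for the same reason no replicate could be left out. The 5 pooled results (exon minus flank in WT and in TCKO, change in exons, change in flanks and the difference of these changes) kept their direction and their side of the threshold under each of 15 alternatives. Of these, 3 alter the flanks alone and leave the exon change as it was by construction, so 12 bear on it. Exon minus flank ranged from 2.46 to 3.26 points in WT and from 2.04 to 2.46 points in TCKO, the exon change from 4.86 to 5.37 points, the flank change from 5.46 to 6.12 points and the difference of changes from -1.08 to -0.428 points. Counts of called exons moved with the rule. Exons higher in TCKO numbered 933 of 18797 with at least 40 calls, 3327 by unadjusted p, 741 with a minimum difference of 40 points and 1075 of 29253 with at least 4 calls per cytosine in both libraries, and exons lower in TCKO numbered 20, 257, 8 and 20 under the same settings. These settings test fewer exons or pass another threshold by construction. With at least 10 calls, no minimum difference or wholly coding exons the counts stayed within 1.5 times, from 1592 to 1920 higher and from 45 to 66 lower. Exons that differed from their own flanks numbered 152 of 12518 with at least 40 calls in exon and flanks (79 rose more, 73 less), 256 with 1 added to each count, and 5 on the log odds scale, and the cause of the last was not tested. A median of 47 calls per exon in WT and 38 in TCKO limits single exons to large differences.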

Other observations

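Flanks before and after the exon differed slightly. The intron before the acceptor went from 78.4% to 84.4% (5.96 points, 5.87 to 6.05), and the intron after the donor from 79.0% to 84.5% (5.48 points, 5.40 to 5.57). Within exons, cytosines on the coding strand had 81.9% in WT and those on the template strand 81.1%, and they rose by 4.95 points (4.86 to 5.04) and 5.12 points (5.02 to 5.21).

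Exons that lay within 5 kb of the TSS of another transcript made up 45.5% of those analysed. They went from 82.1% to 87.1%, and the remaining exons from 81.0% to 86.1%, with 3.61% and 3.81% called higher. Of the exons named above, exon 19 of Abca4 held such a TSS. Others lay near one, at 238 bp for Atp6v1b2 exon 6, 783 bp for Cct8 exon 5, 922 bp for Bace1 exon 8 and 974 bp for Cmya5 exon 6.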
